A study of Mus musculus with 4 samples.

Results

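The genes examined were 10 that make up the keratinocyte side of IL-17 and IL-22 signalling: the receptor chains Il17ra, Il17rc, Il17re, Il22ra1, Il10rb, Il20ra and Il20rb, the cytokine gene Il17c, the adaptor gene Traf3ip2 and the regulator gene Zc3h12a. Peaks of open chromatin from 4 libraries were merged wherever they shared at least 1 bp, and every merged region that touched 1 of these gene bodies or the 25 kb on either side was kept. This gave 70 regions of 82641 in all. The window is a rule of distance, so a region in it may act on a neighbouring gene. Il17rc and Il17re lie side by side and share 8 of their regions, which were counted once.

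IL-17A and IL-17F signal through a receptor made of IL-17RA and IL-17RC, and IL-17C, which epithelial cells make themselves, signals through IL-17RA and IL-17RE. The adaptor Act1, encoded by Traf3ip2, carries these signals to NF-kB and to the MAP kinases, among them JNK, and Zc3h12a encodes Regnase-1, an RNase that degrades the messages of inflammatory genes and restrains the IL-17 response in the skin. IL-22 acts on epithelial cells through IL-22RA1 and IL-10RB and mainly activates STAT3, while IL-20RA and IL-20RB pair with each other, or IL-20RB with IL-22RA1, to receive IL-19, IL-20 and IL-24.

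ATAC-seq, which maps open chromatin through insertion of adapters by the Tn5 transposase, was performed on epidermal keratinocytes of mice with (WT) and without JNK1, the kinase encoded by Mapk8. All mice were female, 8 to 12 weeks old and on a C57BL/6 background, and all had received a cream with 5% imiquimod, which causes psoriasis-like inflammation, on the skin for 8 days. No untreated group was analysed here. Per the study's methods, the Mapk8-KO mice carried floxed Mapk8 and a KRT14-cre transgene, so the gene was deleted in cells that express keratin 14, controls were littermates, and EpCam+ CD49f hi cells were sorted after staining that included CD45, CD31 and CD140a. Each genotype had 2 libraries, called here WT 1, WT 2, Mapk8-KO 1 and Mapk8-KO 2, and no label says whether a library came from 1 mouse or several. In a bulk assay, a region open in fewer cells and a region less open in each cell cannot be told apart.

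The 4 peak lists held 49856 to 69927 intervals. Their values are the fold of the summit over a local background and its p value, from which the number of fragments over each summit (the pileup) was recovered. From the 40159 regions called in all 4 libraries, WT 2 had a depth of 0.694 relative to WT 1, Mapk8-KO 1 one of 1.12 and Mapk8-KO 2 one of 0.646, so the shallower library of each genotype was replicate 2, and Mapk8-KO 2 was the shallowest. A scaled pileup is the number of fragments divided by this depth, which is the median ratio to WT 1 over these regions. The log2 differences below were instead centred on each library's median pileup, so they can differ slightly from the scaled values. The lowest pileup of any called peak was 8 to 10 fragments, so a region below that level is not called, which does not show that it is closed. Of 8 keratinocyte marker genes, 7 (Mapk8-KO 2, without Krt5) or 8 (other libraries) had a called promoter. The Krt14 promoter held 38 and 17 fragments in WT and 199 and 109 in Mapk8-KO, the mice with the Krt14-driven transgene. The immune genes Ptprc, Cd3e, Cd4, Trdc, Itgam, Csf1r, Cd207 and Lyz2 had no called promoter in any library. Summed scaled pileups were 341 to 400 in WT and 508 to 553 in Mapk8-KO over the keratinocyte markers, 111 to 130 and 62 to 91 over 4 endothelial markers, 63 to 69 and 70 to 73 over 4 fibroblast markers, and 210 to 215 and 236 to 248 over 4 melanocyte markers. Without Krt14 the other 7 keratinocyte markers summed to 317 to 362 in WT and 339 to 375 in Mapk8-KO, which overlap, so Krt14 carried that difference. In the last 3 classes Cdh5, Col1a2, Dpt and Tyr had no call in any library, Kdr had none in Mapk8-KO 2, and Pecam1, Tie1, Pdgfra, Col1a1, Mitf, Dct and Mlana were called in all 4. The part of these differences in the results was not tested.

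Each of the 10 genes had regions called in keratinocytes of both genotypes within its window. At Il17c those called in Mapk8-KO lay at neighbouring genes, and its promoter was called in 1 library alone. Of the 70 regions, 46 were called in all 4 libraries (65.7%, against 48.6% of all merged regions) and 9 in 1 library (21.7% of all merged regions). Most regions did not separate the genotypes, and the largest difference among regions called in all 4 libraries lay inside Zc3h12a, where an AP-1 motif region in an intron was lower in both Mapk8-KO libraries while the promoter of the same gene was higher in both. By limma on the depth-centred log2 pileup, with Benjamini-Hochberg adjustment over all 40159 regions, 0 of 46 member regions passed an adjusted p of 0.05, against 244 (0.608%) of all regions, 0.498% higher in WT and 0.11% higher in Mapk8-KO. At an unadjusted p under 0.05 there were 1 member higher in WT (5.44% of all regions) and 2 higher in Mapk8-KO (5.82% of all regions).

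**Figure D1:**
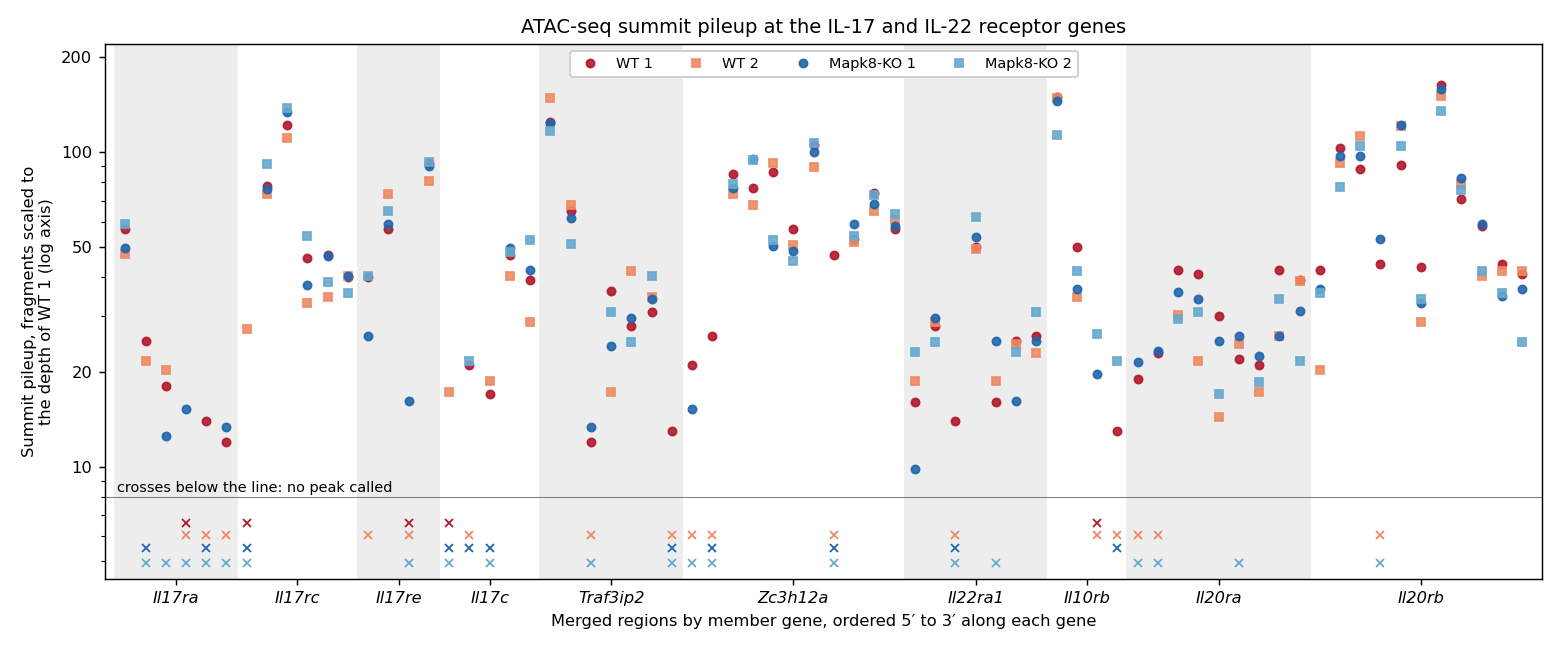
Scaled summit pileup (fragments at the depth of WT 1, log axis) of the 70 regions, ordered along each gene from 5′ to 3′, with 1 point for each library and a cross below the line where no peak was called. Red and orange points (WT) and dark and light blue points (Mapk8-KO) mix at most regions, and the crosses are mostly those of the shallower WT 2 and Mapk8-KO 2.

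Zc3h12a (chr4:125118423-125127840 on mm10, minus strand) had 11 regions, 8 of them called in all 4 libraries. The intronic region at chr4:125125412-125125839 has its summit 2201 bp downstream of the transcription start. WT 1 had 86 fragments there, WT 2 had 64, Mapk8-KO 1 had 56 and Mapk8-KO 2 had 34. Scaled for depth these were 86 and 92.2 in WT and 50.1 and 52.6 in Mapk8-KO, so both knockout libraries lay far below both WT libraries and the pairs were tight. The log2 difference, Mapk8-KO minus WT, was −0.75 (SE 0.21, n = 2 libraries each, limma unadjusted p = 0.00039, adjusted p = 0.057). By an exact two-sided permutation test p was 0.33, the smallest that 2 against 2 libraries allow. This region fell outside the rule for named regions and was chosen after its values were seen. Its adjusted p was 0.048 with regions centred within classes of GC content, 0.05 without Mapk8-KO 1, 0.74 without WT 2 and 0.4 on the fold column, and its log2 difference stayed between −0.87 and −0.68 in every setting tried.

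The bases around this summit carry 1 AP-1 motif, the recognition sequence of Fos and Jun proteins, the latter being substrates of JNK. It is shown because it is the member sequence with the largest difference between genotypes among regions called in all 4 libraries. The 201 bases are the plus strand of the reference at chr4:125125539-125125739, with the motif in capitals.
Zc3h12a intron: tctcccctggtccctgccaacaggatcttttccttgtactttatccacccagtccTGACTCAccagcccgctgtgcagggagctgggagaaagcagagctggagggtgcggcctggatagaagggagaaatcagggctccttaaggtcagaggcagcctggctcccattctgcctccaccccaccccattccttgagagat

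The promoter of Zc3h12a (chr4:125127373-125128123, over the start of the gene) moved the other way. The WT libraries, 1 and 2, had 77 and 47 fragments there, and Mapk8-KO 1 and 2 had 106 and 61. Scaled, these were 77 and 67.7 in WT and 94.9 and 94.4 in Mapk8-KO, so the genotypes did not overlap. The log2 difference was 0.44 (SE 0.19, limma adjusted p = 0.35), and 0.24 (adjusted p = 0.72) when regions were centred within GC classes. Ranked by fold among the regions called in all 4 libraries, it stood at percentile 2.03 and 2.42 in WT and 13.4 and 13.8 in Mapk8-KO. It was the 1 member region whose lower percentile in one genotype was at least 10 points above the higher percentile in the other, with 4.07% of all regions past that gap towards Mapk8-KO. In the other direction there were 0 members, against 4.65% of all regions. Ranked by pileup, the Zc3h12a promoter stood at percentile 77.5 and 70.6 in WT and 86 and 86.3 in Mapk8-KO, short of the 10 points.

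The 150 bases upstream of the start (chr4:125127841-125127990, read on the minus strand, the gene's own) are printed to show how rich in CpG this promoter is. They hold 16 CpG, in capitals, where the median over 77198 annotated starts is 3 and 11.3% of starts have as many.
Zc3h12a promoter: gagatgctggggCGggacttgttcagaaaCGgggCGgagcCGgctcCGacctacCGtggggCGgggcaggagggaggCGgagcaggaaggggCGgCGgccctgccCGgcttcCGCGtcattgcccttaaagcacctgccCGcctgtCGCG

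The remaining 6 regions of Zc3h12a called in all 4 libraries stayed close to each other in log2 difference, from −0.15 to 0.16. They include another AP-1 motif region in an intron (chr4:125122481-125123214), at 105, 62, 112 and 69 fragments in WT 1, WT 2, Mapk8-KO 1 and Mapk8-KO 2, a log2 difference of 0.14. An AP-1 motif was thus present both at the lower intronic region and at a neighbour, further into the gene, whose mean was not lower in Mapk8-KO. The strongest region by fold lies upstream of the gene (chr4:125134083-125134916) and was even, at 85, 51, 86 and 51 fragments (log2 difference 0.03). The other 3 regions were called in WT 1 alone (47 and 26 fragments) or in WT 1 and Mapk8-KO 1 (21 and 17 fragments), the deeper libraries.

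**Figure D2:**
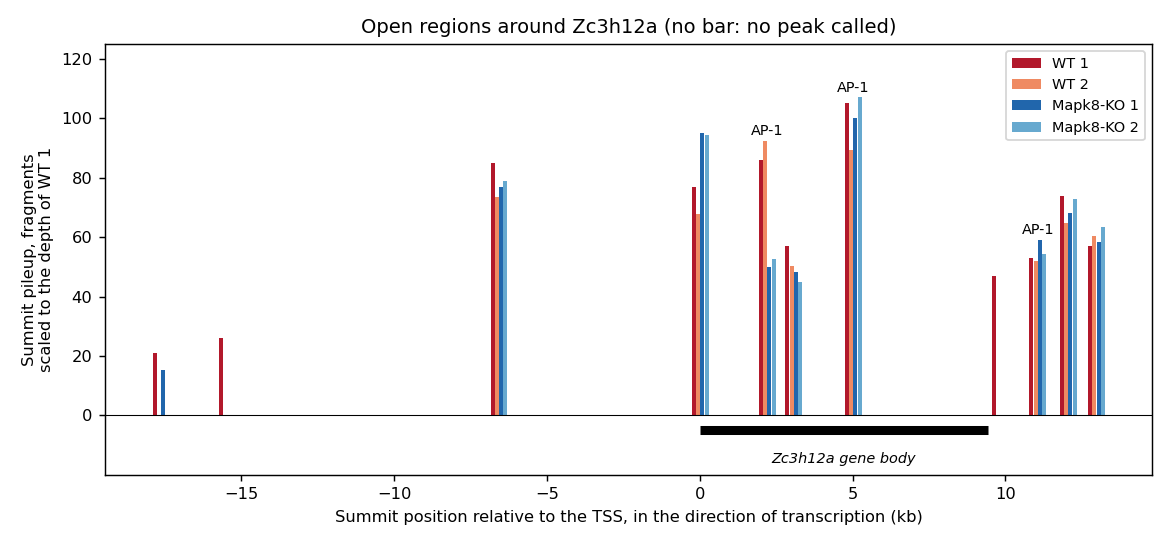
Scaled summit pileup of the 11 Zc3h12a regions against the distance of the summit from the transcription start, in kb along the direction of transcription, with 1 bar for each library and the gene body as a black bar. At the first AP-1 region inside the gene the WT bars reach 86 and 92.2 and the Mapk8-KO bars 50.1 and 52.6, while at the start of the gene the order is turned (77 and 67.7 against 94.9 and 94.4).

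The receptor chain shared by IL-17A, IL-17F and IL-17C, Il17ra (chr6:120463247-120487559, plus strand), had an even promoter. Its pileup at chr6:120463046-120463837 was 57, 33, 55 and 38 fragments in WT 1, WT 2, Mapk8-KO 1 and Mapk8-KO 2, with overlapping scaled values of 47.5 to 57 in WT and 49.3 to 58.8 in Mapk8-KO (log2 difference 0.10, limma adjusted p = 0.92). It was the only Il17ra region of 6 called in all 4 libraries. An intronic region 7491 bp into the gene (chr6:120470572-120470906) was called in both WT libraries, at 25 and 15 fragments, and in neither Mapk8-KO library. The WT level was 23.3 ± 2.40 scaled fragments (SD, n = 2). It would give 26 fragments at the depth of Mapk8-KO 1 and 15.1 at that of Mapk8-KO 2. The lowest pileups of any peak in those libraries were 10 and 8. This level comes only from the libraries that called the region, and a call also depends on local background. What part depth had in the missing calls was not tested. The region holds 1 AP-1 motif, TGAGTCA.

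Regions called in both libraries of one genotype and neither of the other numbered 2 for WT (2.17% of all merged regions) and 1 for Mapk8-KO (1.65%). The other WT region lies in the Il17c window, in an intron of the neighbouring gene Mvd (chr8:122438088-122438326). It held 17 and 13 fragments, or 17.9 ± 1.22 scaled (SD, n = 2), a level that would give 19.9 fragments at the depth of Mapk8-KO 1 and 11.5 at that of Mapk8-KO 2. The Mapk8-KO region lies in an Il10rb intron (chr16:91406785-91407096), 640 bp past the start and next to the promoter region of that gene. It held 22 and 17 fragments, or 23 ± 4.67 scaled (SD, n = 2), which would give 23 and 16 fragments in WT 1 and WT 2. All 3 levels are low beside the median pileup of 30 to 54 fragments over regions called in all 4 libraries. Each was taken only from the libraries that called the region, and what part depth had in the missing calls was not tested. Leaving out a library loosens the definition. The WT count was then 4 without WT 1, 7 without WT 2 and 5 without Mapk8-KO 1, and the Mapk8-KO count 2 without WT 1 and 3 without Mapk8-KO 2.

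The 3 are printed because they are the member regions called in both libraries of 1 genotype and in neither of the other. Each line gives the 201 plus-strand bases around the strongest summit, with an AP-1 motif in capitals in Il17ra, a STAT motif (TTCNNNGAA) in capitals in the Il17c window, and neither in Il10rb. Their positions are chr6:120470638-120470838, chr8:122438095-122438295 and chr16:91406775-91406975.
Il17ra intron, WT alone: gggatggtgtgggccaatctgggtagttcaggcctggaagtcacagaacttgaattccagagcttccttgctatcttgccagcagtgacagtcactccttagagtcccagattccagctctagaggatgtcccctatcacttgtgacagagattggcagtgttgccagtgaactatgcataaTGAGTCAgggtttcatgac
Il17c window, WT alone: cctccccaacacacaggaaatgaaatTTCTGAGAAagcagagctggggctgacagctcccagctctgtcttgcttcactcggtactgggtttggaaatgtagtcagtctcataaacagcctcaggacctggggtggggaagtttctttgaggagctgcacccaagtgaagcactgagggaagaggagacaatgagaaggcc
Il10rb intron, Mapk8-KO alone: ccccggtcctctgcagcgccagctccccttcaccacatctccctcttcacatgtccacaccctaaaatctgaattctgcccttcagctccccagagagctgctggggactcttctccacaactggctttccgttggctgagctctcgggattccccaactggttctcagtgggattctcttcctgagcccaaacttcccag

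**Figure D3:**
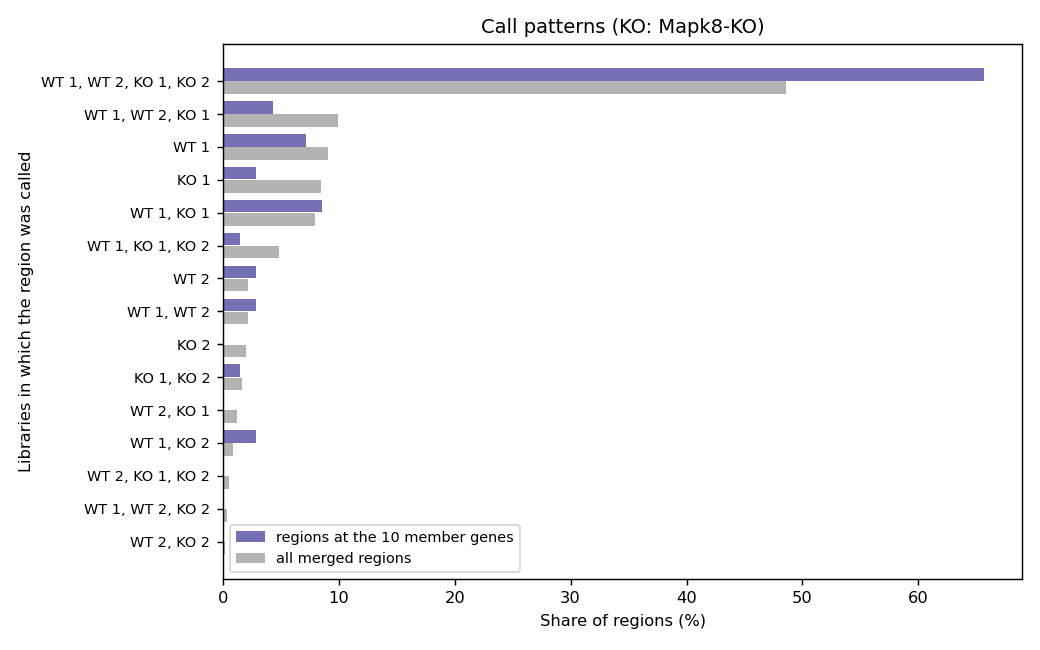
Share of regions (%) with each pattern of calls over the 4 libraries, for the 70 member regions and for all 82641 merged regions. The bar for calls in all 4 libraries reaches 65.7% for the members and 48.6% for all regions. The patterns of both WT libraries alone and of both Mapk8-KO libraries alone are short in both.

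The second chain of the IL-17A receptor, Il17rc (chr6:113471427-113483140), and the IL-17C receptor chain, Il17re (chr6:113458484-113470758), both on the plus strand, were open at both starts in every library. The Il17re promoter (chr6:113458473-113459030) held 92, 56, 101 and 60 fragments in WT 1, WT 2, Mapk8-KO 1 and Mapk8-KO 2 and ranked by fold among the most enriched regions, at percentile 95.4 to 99.3 (log2 difference 0.14, limma adjusted p = 0.84). The Il17rc promoter (chr6:113471203-113472636) held 78, 51, 85 and 59 fragments and was even once scaled, except that Mapk8-KO 2 reached 91.3 against 73.4 to 78 in the other libraries (log2 difference 0.19, adjusted p = 0.77). The region with the most fragments near both genes covers a coding exon of Il17rc, close to the start of the neighbour Creld1 (chr6:113480511-113481316), with 122, 77, 150 and 89. Scaled, both Mapk8-KO libraries (134 and 138) lay above both WT libraries (122 and 111), by 0.27 on the log2 scale (SE 0.17, adjusted p = 0.57). None of the 10 regions in these joint windows held an AP-1 motif within 100 bp of the summit.

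Il17c (chr8:122422020-122423639, plus strand), the cytokine of the set, had the least open promoter. Its region at chr8:122421553-122421842 was called in WT 2 alone, at 12 fragments, and the 3 other libraries, 2 of them deeper, had no call. Stronger regions of its window lie at Mvd, an enzyme gene of cholesterol synthesis, and at Cyba, a subunit gene of the NADPH oxidase. The region at the Mvd start (chr8:122443361-122443888) held 47, 28, 55 and 31 fragments and was the 1 member with an NF-kB motif (GGG and TTTCC with any 2 bases between). A neighbouring region (chr8:122444235-122444735), named after its values were seen, held 39, 20, 47 and 34 fragments in WT 1, WT 2, Mapk8-KO 1 and Mapk8-KO 2. Scaled, the WT values were 39 and 28.8 and the Mapk8-KO values 42.1 and 52.6, higher in both by 0.54 on the log2 scale (SE 0.26, limma unadjusted p = 0.042, adjusted p = 0.42). The difference was 0.28 on the fold column, 0.33 without WT 2 (unadjusted p = 0.31) and 0.38 without Mapk8-KO 2 (unadjusted p = 0.23).

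The adaptor gene Traf3ip2 (chr10:39612934-39655307, plus strand) had the most open promoter of the 10 genes. Its pileup at chr10:39612751-39613857 was 124, 103, 137 and 75 fragments in WT 1, WT 2, Mapk8-KO 1 and Mapk8-KO 2. Scaled, WT stood at 124 and 148 and Mapk8-KO at 123 and 116, so that WT 2 alone was high and WT 1 met the knockout libraries (log2 difference −0.14, limma adjusted p = 0.82). The intronic region with the highest mean fold, though not the most fragments, lies at chr10:39639877-39640147. It also stood out in WT 2 alone, at 41.8 scaled fragments against 24.8 to 29.6 in the other 3. No Traf3ip2 region held an AP-1 motif at the summit.

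**Figure D4:**
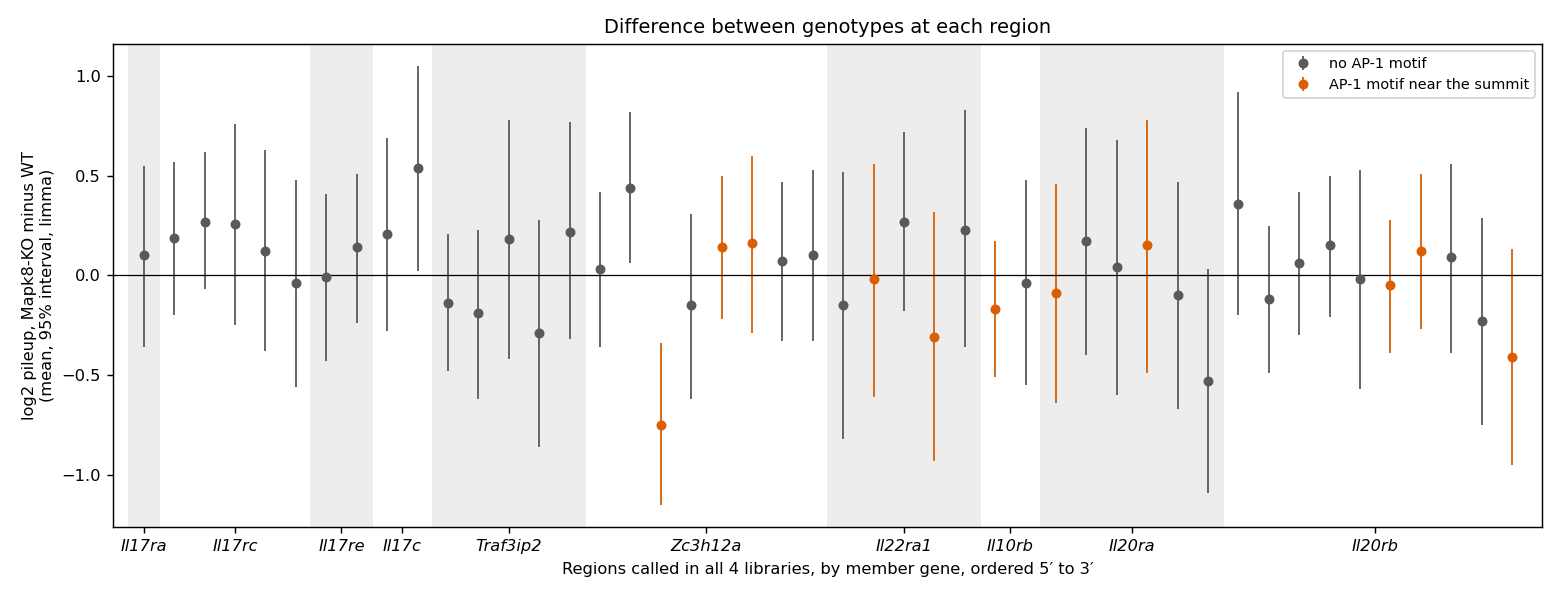
Log2 difference in depth-centred summit pileup, Mapk8-KO minus WT, with its 95% interval from limma, for the 46 regions called in all 4 libraries, in orange where an AP-1 motif lies within 100 bp of the summit. The Zc3h12a intronic region at −0.75 stands apart, and 3 of the 46 intervals leave out 0.

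The IL-22 receptor chain Il22ra1 (chr4:135728172-135752140, plus strand) had a promoter of middling height and high fold. At chr4:135727693-135728286 it held 50, 34, 60 and 40 fragments in WT 1, WT 2, Mapk8-KO 1 and Mapk8-KO 2. Both Mapk8-KO libraries (53.7 and 61.9 scaled) were above both WT libraries (50 and 49), by 0.27 on the log2 scale (SE 0.23, limma adjusted p = 0.71). Its percentile by fold was 76.9 to 90.7, and by pileup 50.6 to 67.4. The other regions of its window were weaker, with at most 33 fragments, and the distal region with the highest fold (chr4:135762531-135762772, a coding exon of Myom3) had 26, 16, 28 and 20.

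The partner chain Il10rb (chr16:91406164-91425834, plus strand), which also serves the IL-10 receptor, had its most open region outside the gene. This region has its summit at −8032 bp from the start, in an intron of Ifnar2, a chain of the type I interferon receptor (chr16:91397762-91398430), and held 149, 103, 162 and 73 fragments. Scaled, WT 1, WT 2 and Mapk8-KO 1 were level (149, 148 and 145) and Mapk8-KO 2 was lower (113), giving a log2 difference of −0.17 (SE 0.17, adjusted p = 0.76). The Il10rb promoter (chr16:91405668-91406630) was lower than this region, at 50, 24, 41 and 27 fragments, and its genotypes overlapped (adjusted p = 0.98). The distal region is shown for its 2 AP-1 motifs, in capitals 4 bases apart, with no change past the test. The plus-strand bases are chr16:91398103-91398303.
Il10rb upstream, Ifnar2 intron: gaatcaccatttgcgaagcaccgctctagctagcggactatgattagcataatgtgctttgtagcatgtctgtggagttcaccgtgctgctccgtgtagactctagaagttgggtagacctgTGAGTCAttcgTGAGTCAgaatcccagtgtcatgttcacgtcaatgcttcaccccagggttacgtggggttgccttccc

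The 2 chains of the IL-20 receptor differed in how open they were. Il20rb (chr9:100457719-100486788, minus strand) had 10 of 11 regions called in all 4 libraries, and Il20ra (chr10:19712570-19760053, plus strand) 6 of 9. The Il20rb promoter (chr9:100486404-100486827) held 88, 78, 108 and 67 fragments, with overlapping scaled values of 88 to 112 in WT and 96.7 to 104 in Mapk8-KO (adjusted p = 0.94). An intronic region (chr9:100466694-100467969) held 163, 104, 176 and 87 fragments, the highest of all member regions in every library but Mapk8-KO 2. It was as even (log2 difference −0.05, limma adjusted p = 0.94). The Il20ra promoter (chr10:19712310-19712778), at 42, 21, 40 and 19 fragments, was among the 3 promoter regions of the members with an AP-1 motif and did not separate the genotypes (log2 difference −0.09, adjusted p = 0.94).

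The Il20rb distal region with the highest fold (chr9:100440152-100440709) rested on 1 library. WT 1 and WT 2 had 41 and 29 fragments, Mapk8-KO 1 had 41 and Mapk8-KO 2 had 16, and the percentile by fold was 81.6, 74, 70.9 and 29.9. Mapk8-KO 1 was thus near the WT libraries and Mapk8-KO 2 far below them. The log2 difference was −0.41 (SE 0.27, limma adjusted p = 0.60) with all libraries, −0.12 without Mapk8-KO 2 and −0.69 without Mapk8-KO 1. The lines below place this AP-1 site beside that of the Il20ra promoter, both in capitals on the plus strand (chr9:100440392-100440592 and chr10:19712358-19712558).
Il20rb distal: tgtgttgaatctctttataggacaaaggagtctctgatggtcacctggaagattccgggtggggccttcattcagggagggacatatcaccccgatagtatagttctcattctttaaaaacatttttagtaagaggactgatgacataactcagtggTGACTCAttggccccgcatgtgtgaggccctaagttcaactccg
Il20ra promoter: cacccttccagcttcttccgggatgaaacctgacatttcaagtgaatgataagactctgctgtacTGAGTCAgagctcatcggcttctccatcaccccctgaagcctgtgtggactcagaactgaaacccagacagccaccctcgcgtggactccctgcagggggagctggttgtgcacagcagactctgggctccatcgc

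Summit pileup counts fragments over 1 position, so promoters can be set side by side without a correction for length. Averaged over the 4 libraries, the scaled pileup of the promoter region was 128 fragments for Traf3ip2, 100 for Il20rb, 89 for Il17re, 83.5 for Zc3h12a, 79.7 for Il17rc, 53.6 for Il22ra1, 53.1 for Il17ra, 40.8 for Il10rb and 34.4 for Il20ra. Il17c follows with 17.3 in its 1 library. Neighbours in this order whose ranges over the libraries do not overlap were Traf3ip2 and Il20rb, Il17rc and Il22ra1, and Il20ra and Il17c, while the other neighbours did not differ beyond their spread.

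Fold and pileup ranked the members differently. Over the 46 regions called in all 4 libraries, the mean percentile by fold was 38.1 and 33.6 in WT and 36.4 and 37 in Mapk8-KO, and by pileup 53.8 and 47.7 against 50.4 and 50.9. The genotypes overlapped on both scales. The gap between scales was widest at Zc3h12a, whose 8 regions had a median percentile of 3.62 to 11.2 by fold and 66.9 to 76.5 by pileup. The local background that divides the pileup had a median of 15.5, 9.74, 15.6 and 9.13 fragments over these 8 regions, against 4.36, 2.88, 4.76 and 2.68 over all regions called in all 4 libraries. Fold is the pileup plus 1 divided by this background plus 1, and the background at Zc3h12a was above that of all regions in every library.

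**Figure D5:**
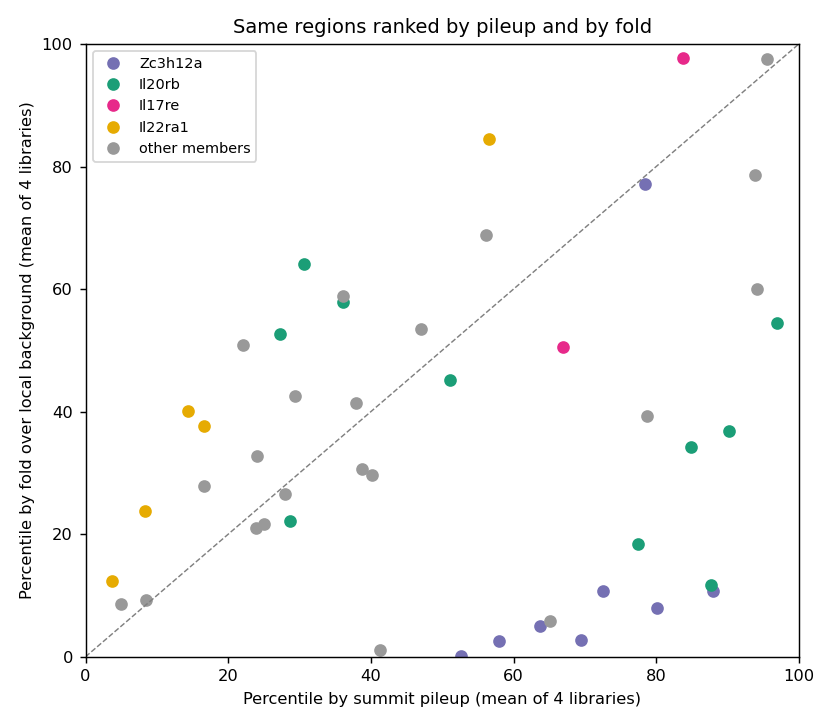
Percentile by fold over local background against percentile by summit pileup, each the mean of 4 libraries, for the 46 member regions called in all 4, with a dashed line where both are equal. Zc3h12a regions lie in the middle and upper part of the pileup axis and, except for the upstream region, low on the fold axis, and Il22ra1 regions lie above the line.

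Across the 46 regions the median log2 difference was 0.06, against 0.05 for all 40159, and 26 regions were higher on average in Mapk8-KO and 20 in WT. Centred on promoter regions instead of all regions, the medians were −0.06 and −0.07 and the split 19 to 27, a shift of all regions by the same amount. On the fold column the medians were 0.08 for the members and 0.02 for all regions. In 7 regions both WT libraries lay above both Mapk8-KO libraries (16.9% of all regions), and in 7 the reverse held (24.6% of all regions), so in neither direction was the members' share above that of all regions.

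An AP-1 motif (TGAGTCA, or TGACTCA as read on the other strand) lay within 100 bp of the strongest summit in 13 of 70 member regions (18.6%, Wilson 95% interval 11.2 to 29.2, counting error only), against 23.7% of all merged regions. Outside promoters the shares were 22.2% and 28%, and at promoters 12% in both. The STAT motif was found in 6 members (8.57%, against 5.75%), and the NF-kB motif and the p63 motif (2 copies of CATG with any 6 bases between) in 1 each (1.43%, against 1.56% and 1.21%). No single member region held more than 1 kind of motif within 100 bp of its strongest summit. The 11 members with an AP-1 motif called in all 4 libraries had a median log2 difference of −0.05 (4 higher in Mapk8-KO, 7 in WT) and the 35 without it 0.09 (22 and 13), and all regions gave −0.08 and 0.09. The members' split by motif was therefore close to that of the whole atlas.

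Other genes of the pathway were listed by role, and 0.608% of all regions passed limma's adjusted threshold. Of 15 regions called in all 4 libraries at 4 further receptor genes (Il17rb, Il17rd, Il22ra2 and Il10ra), 0 passed that threshold in limma, and at an unadjusted p under 0.05 0 were lower and 1 was higher in Mapk8-KO (5.44% and 5.82% of all regions). Of 72 regions at 15 relay genes such as Traf6, Stat3 and Nfkbiz, 1 passed, lower in Mapk8-KO, and at an unadjusted p under 0.05 there were 6 higher in WT and 1 in Mapk8-KO. The 1 that passed (chr1:192116029-192116643) lies in the window of Traf5, which encodes an adaptor recruited by Act1. It holds an AP-1 motif and had 93, 85, 81 and 35 fragments (log2 difference −0.72, SE 0.20, limma adjusted p = 0.048). Without WT 1, WT 2 or Mapk8-KO 2 its adjusted p was 0.1, 0.82 and 0.65, and it was 0.0027 without Mapk8-KO 1. On the fold column its log2 difference was −0.17 (adjusted p = 0.87), and its adjusted p was 0.1 with GC classes, 0.33 without a variance trend and 0.084 to 0.13 with other scalings.

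Of 31 regions at 11 target genes, which encode antimicrobial peptides, chemokines and IL-36 cytokines, 1 passed, also lower in Mapk8-KO, and at an unadjusted p under 0.05 there were 4 higher in WT and 0 in Mapk8-KO. The 1 that passed lies in the windows of the alarmin genes S100a7a, S100a8 and S100a9 (chr3:90679970-90680739), with 32, 27, 19 and 9 fragments (log2 difference −1.15, SE 0.31, limma adjusted p = 0.048). Without WT 1, WT 2 or Mapk8-KO 2 its adjusted p was 0.22, 0.75 and 0.44, and 0.018 without Mapk8-KO 1. It was 0.3 on the fold column (log2 difference −0.94), 0.099 with GC classes, 0.17 without a variance trend and 0.072 to 0.1 with other scalings. Of 8 regions at 6 ligand genes, which are made mostly by lymphocytes and myeloid cells, or by keratinocytes in the case of Il19, Il20 and Il24, 0 passed limma's adjusted threshold. At an unadjusted p under 0.05, 4 were lower and 1 higher in Mapk8-KO (5.44% and 5.82% of all regions), with a median log2 difference of −0.39 and a smallest adjusted p of 0.27. Past the rank gap were 3 regions higher in WT (4.65% of all regions) and 1 higher in Mapk8-KO (4.07%). In the Il17f window, chr1:20775750-20776239 had 33, 31, 24 and 16 fragments and chr1:20786943-20787672 had 37, 27, 33 and 17. In the Il24 window, chr1:130879997-130880452 had 45, 31, 40 and 13, low in Mapk8-KO 2 more than in Mapk8-KO 1. In the Il22 window, chr10:118194933-118195548 was higher in Mapk8-KO, at 17, 12, 26 and 19.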

How the data were processed

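ATAC-seq libraries of sorted keratinocytes (2 WT, 2 Mapk8-KO) were grouped by labelled genotype. As the methods state, the authors aligned read pairs to mm10 (Bowtie2), discarded multiply or poorly aligned reads and ran MACS2 in its paired-end mode. The methods name no control library, and the deposited lists are 1 for each library. The submitters' processing notes also name Trimmomatic 0.36, STAR 2.5.3, Picard and SAMtools. No shift for the Tn5 site is stated. The deposited lists hold the peak interval, a score made from the q value, the fold of the summit over local background, the deposited −log10 p and −log10 q values, and the offset of the summit. The largest q was 0.0097. Total reads are not known from these lists.

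Pileup and local background were solved together from the fold and the −log10 p of each peak. At least 99.966% of peaks in each library gave a whole number of fragments (tolerance 0.001 on the −log10 p). A region took its highest peak in each library. Regions called in all 4 libraries were tested on log2 pileup, centred on the library median, with limma 3.58.1 in R 4.3.3 (variance trend, Benjamini-Hochberg adjustment over 40159 regions, threshold 0.05), which was checked on simulated data. Percentiles were taken within each library over these regions, with a rank gap of 10 points. The limma test replaces a count test because the files hold no reads per region. Genes and starts came from GENCODE M21, promoters lay within 2 kb of a start, and sequences were read from GRCm38, the assembly of mm10. Motifs were sought in both orientations up to 100 bp from the strongest summit. The members, lists and tests were chosen with earlier results of these data known. Named regions were, for each gene, the promoter region and the distal region with the highest mean fold. Added were every member called in both libraries of 1 genotype and neither of the other, past the rank gap or past the limma threshold. Those said to be chosen after their values were seen come on top. The paper describes the 2 ATAC-seq samples of each group as independent. No label says that they came from separate mice, so p-values measure the spread between these libraries. The alternatives were no variance trend, a replicate block, GC classes, both together, the fold column, other centrings, quantile normalization, q of 0.001, equal list lengths, 50% cover, windows of 10 and 50 kb, other rank gaps and rank measures, other motif windows, and each library left out in turn. One marker gene of the immune list is not reported here.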

Additional observations from a re-analysis of the deposited data

How the results depend on the processing

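Of 90 values recomputed for 9 results, 48 moved by less than the library spread (for counts, less than 1.5 times) and 42 by more, and the cause of each move was not tested. Regions past the limma threshold (0 members, 244 in all) numbered 0 in all without a variance trend (limma, 3985 at an unadjusted p under 0.05) and 0 on the fold column (2731 unadjusted), 16 with centring on promoter regions, 94 with centring on the median log2 ratio (chosen after seeing the data), 29 with quantile normalization and 46 with 50% cover. With GC classes there were 91 in all and 1 member. Leaving out a library gave 10 to 1590 in all and 0 to 1 members, the 1590 and the 1 without Mapk8-KO 1, the 10 without WT 2. The lone sample of a reduced genotype is then assumed to vary like the other genotype's pair. In each of these cases the 1 member was the Zc3h12a intronic region.

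The change from replicate 1 to replicate 2 in WT and that in Mapk8-KO had r = 0.0392 across 40159 regions. No label says whether the numbers mark a shared batch, and this r cannot decide it. Replicate 2 was the shallower library in both genotypes. With the replicate block, 386 regions in all and 1 member passed, and 443 and 1 with the block and GC classes. The member was again the Zc3h12a intronic region (adjusted p = 0.035 and 0.011). With the rank gap taken within each replicate number as a block, 1 member was ranked higher in WT.

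Regions of WT alone (2) numbered 1 with lists of equal length, 1 with a 10 kb window and 2 to 7 with a library left out, and regions of Mapk8-KO alone (1) 2 with a 50 kb window and 1 to 3 with a library left out. Members ranked higher in Mapk8-KO (1) numbered 2 at a gap of 5 points, 0 at 20 points and 0 when ranked by pileup. Members ranked higher in WT (0) numbered 1 by −log10 p, 2 by pileup and 2 with a 50 kb window. With a library left out these counts were 3 to 8 in Mapk8-KO and 2 to 4 in WT, and the mean percentile by fold, WT minus Mapk8-KO (−0.866), was −3.12 to 1.55, above 0 without WT 2. The share with an AP-1 motif was 15.7% to 25.7% in all settings. With 2 libraries a genotype, differences of the size seen at most members were not detectable.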
